A study of Homo sapiens with 4 samples.

Results

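The genes that encode collagen chains, laminin chains and integrin subunits were examined in ATAC-seq peak lists of 786-O cells. They were chosen by symbol from a RefSeq table of GRCh38.p14: COL with a type number, A and a chain number, or LAMA, LAMB, LAMC, ITGA or ITGB with a subunit name. This gave 82 of the 20037 protein-coding genes, of which 44 encode collagens, 12 laminins and 26 integrins. The 4 genes ITGB1BP1, ITGB1BP2, ITGB3BP and ITGBL1 begin alike but encode no subunit and were left out.

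Collagens are triple-helical proteins that form fibrils, networks and anchoring structures outside cells, and type IV collagen builds the network of basement membranes. Laminins are trimers of an alpha, a beta and a gamma chain that form the second network of basement membranes, on which kidney tubule cells rest. Integrins are receptors made of an alpha and a beta subunit that bind these matrix proteins, and other ligands, and link them to the cytoskeleton.

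ATAC-seq marks open chromatin as DNA that the Tn5 transposase can reach, and a peak is a stretch called as open. The ACSS2i group is 786-O cells that received 5 µM of an ACSS2 inhibitor for 24 h, and the DMSO group is 786-O cells that received the vehicle for 24 h, with 2 libraries in each group. Both groups are the same clear cell renal cell carcinoma line, which lacks functional VHL, the protein that targets hypoxia factors for destruction, so the absence of VHL is shared by all 4 libraries. The series concerns ACSS2, an enzyme that makes acetyl-CoA from acetate, HIF-2α and the ubiquitin ligase MUL1, and the experiment addresses which accessible regions differ under the inhibitor.

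Peaks were called per library, and the ACSS2i lists were the shorter ones, with 16400 and 22044 peaks, against 34696 and 50294 peaks in the DMSO lists. They covered 8.27 and 12.9 Mb in ACSS2i libraries, against 23.7 and 34.5 Mb in DMSO libraries. List length thus differed between the groups, and its part in the counts was not tested except where lists of equal length are given. Of 10 markers of a kidney tubule tumour line, 4 and 7 had a gene-end peak in the ACSS2i libraries and 7 in each DMSO library, with VIM and the peak shared by KRT8 and KRT18 among those in all 4, and PAX2, CA9 and NNMT in none. Of 8 immune markers none had one in either ACSS2i library, and 0 and 2 had one in DMSO libraries, namely CD14 (fold 4.23) and SPI1 (fold 4.45), with PTPRC and CD3E in no library. Of 8 endothelial and stromal markers 1 had one in each ACSS2i library and 2 in each DMSO library. Nothing in the labels says that the 2 libraries of a group came from separate cultures, so the spread between them may be technical.

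A gene-end peak is a peak within 1000 bp of either end of the gene span. For most members with a known strand the strongest such peak of a library, by −log10 q, lay at the 5′ end of the span. It lay there at 24 of 31 such members and at the 3′ end at 6, while at LAMB2 the end differed between libraries. Weaker peaks at the other end were not counted, such as that of COL7A1 at its 3′ end in DMSO replicate 2 (fold 2.83). RefSeq promoters, windows of 250 bases before to 50 after a gene's start, were matched for 58 of the 82 members. The LAMA3 peak lay at the start of its span, and no peak overlapped its promoter window in any library. Windows of 3 members whose ends were called in every library, and of 4 whose ends were called under DMSO but under ACSS2i in neither library, are shown so that the DNA at these ends can be compared.
ITGB8: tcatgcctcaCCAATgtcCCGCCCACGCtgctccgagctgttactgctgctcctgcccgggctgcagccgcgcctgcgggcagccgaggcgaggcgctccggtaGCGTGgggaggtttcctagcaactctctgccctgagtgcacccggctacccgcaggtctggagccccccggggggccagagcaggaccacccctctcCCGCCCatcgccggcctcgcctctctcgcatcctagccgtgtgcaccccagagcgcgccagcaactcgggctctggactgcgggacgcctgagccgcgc
ITGAV: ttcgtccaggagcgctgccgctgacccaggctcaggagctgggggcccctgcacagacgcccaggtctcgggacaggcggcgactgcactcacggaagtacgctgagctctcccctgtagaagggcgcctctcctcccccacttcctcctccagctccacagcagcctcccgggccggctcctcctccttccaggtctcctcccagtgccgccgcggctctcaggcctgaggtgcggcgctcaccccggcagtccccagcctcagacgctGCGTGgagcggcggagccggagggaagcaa
COL7A1: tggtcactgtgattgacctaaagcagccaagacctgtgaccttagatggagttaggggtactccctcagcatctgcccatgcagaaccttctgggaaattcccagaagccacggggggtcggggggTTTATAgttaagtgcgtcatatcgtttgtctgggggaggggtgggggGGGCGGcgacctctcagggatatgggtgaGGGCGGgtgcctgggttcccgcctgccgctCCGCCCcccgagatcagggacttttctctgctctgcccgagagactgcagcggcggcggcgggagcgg
The 3 above had a gene-end peak in all 4 libraries. ITGB8 pairs with ITGAV to bind and activate latent TGF-β, ITGAV is the alpha chain of several receptors for RGD-containing matrix proteins, and COL7A1 forms the anchoring fibrils under epithelia.
ITGA6: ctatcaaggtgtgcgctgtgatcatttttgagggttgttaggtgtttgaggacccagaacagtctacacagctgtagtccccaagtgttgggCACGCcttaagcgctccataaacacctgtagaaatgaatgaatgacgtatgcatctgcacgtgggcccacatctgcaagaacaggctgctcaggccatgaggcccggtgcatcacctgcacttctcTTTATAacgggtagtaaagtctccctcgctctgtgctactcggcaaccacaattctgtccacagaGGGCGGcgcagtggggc
COL12A1: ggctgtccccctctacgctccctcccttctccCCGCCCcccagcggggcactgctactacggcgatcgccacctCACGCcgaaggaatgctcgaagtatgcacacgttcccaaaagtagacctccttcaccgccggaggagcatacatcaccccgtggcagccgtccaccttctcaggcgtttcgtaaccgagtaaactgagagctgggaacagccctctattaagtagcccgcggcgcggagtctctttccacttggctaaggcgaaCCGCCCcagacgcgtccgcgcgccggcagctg
COL18A1: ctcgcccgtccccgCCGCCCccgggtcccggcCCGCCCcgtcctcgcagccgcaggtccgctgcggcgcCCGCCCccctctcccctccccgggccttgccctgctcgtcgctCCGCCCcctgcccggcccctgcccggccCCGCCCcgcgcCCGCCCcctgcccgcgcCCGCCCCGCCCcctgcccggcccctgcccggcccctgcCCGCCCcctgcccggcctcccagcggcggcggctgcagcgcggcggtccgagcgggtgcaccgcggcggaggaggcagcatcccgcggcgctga
COL4A2: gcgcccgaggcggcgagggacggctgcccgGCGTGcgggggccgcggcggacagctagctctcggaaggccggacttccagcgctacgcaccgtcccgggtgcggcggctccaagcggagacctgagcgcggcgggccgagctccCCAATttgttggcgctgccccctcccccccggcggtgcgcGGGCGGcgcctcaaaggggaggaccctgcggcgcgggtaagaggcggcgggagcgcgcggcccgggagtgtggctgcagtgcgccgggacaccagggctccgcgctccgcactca
These 4 ends were called in each DMSO library and in no ACSS2i library. The DMSO peaks of COL12A1 and COL4A2 overlapped the printed windows in both libraries, but those of ITGA6 and COL18A1 in DMSO replicate 2 alone. The COL18A1 summits lay outside its window, 1342 and 758 bp from the start, so the printed bases are not the centre of that peak. ITGA6 is a laminin receptor chain, COL12A1 a collagen that lies on the surface of fibrils, COL18A1 the precursor of endostatin, and the COL4A2 window also holds the start of COL4A1 on the other strand.

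All windows are on GRCh38.p14, written 5′ to 3′ on the gene's strand: ITGB8 chr7:20330650-20330949 (plus), ITGAV chr2:186589806-186590105 (plus), COL7A1 chr3:48595280-48595579 (minus), ITGA6 chr2:172427086-172427385 (plus), COL12A1 chr6:75206004-75206303 (minus), COL18A1 chr21:45404915-45405214 (plus) and COL4A2 chr13:110307034-110307333 (plus). Capitals mark matches, on either strand, of 5 motifs. They are the AP-1 motif TGANTCA, the GC box GGGCGG of Sp-type factors and the box CCAAT bound by nuclear factor Y. The others are the TATA box TATAAA of core promoters, and GCGTG, a form of the core of the hypoxia response element. Other forms of that core were not searched. Neighbouring matches can share bases, as a GC box and a GCGTG match do in ITGB8 and neighbouring GC boxes do in COL18A1. None of the 7 windows held an AP-1 match. COL18A1 had 9 GC box matches, the most of the 7, and ITGAV had 0. COL18A1 also had the highest content of G and C (86.7%), and ITGA6 the lowest (53.0%). GCGTG was matched in ITGB8, ITGAV, ITGA6, COL12A1 and COL4A2, so in windows of both kinds, and TATAAA in COL7A1 and ITGA6. A match is a run of letters and not a bound site.

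Over the 58 member promoters the GC box was matched in 55.2%, against 58.5% of the 15842 protein-coding promoters of the same length. The CCAAT box was matched in 24.1% of member promoters and 36.4% of all, GCGTG in 37.9% and 44.1%, TATAAA in 10.3% and 9.63%, and the AP-1 motif in 3.45% and 5.75%. The member promoters had a median of 64.8% G or C and 17.5 CG dinucleotides, against 62.7% and 22 in all promoters. A peak overlapped 5 and 6 of the 58 member promoters in ACSS2i libraries (8.62% and 10.3%) and 13 and 20 in DMSO libraries (22.4% and 34.5%). Among all promoters the shares were 28.7% and 37.7% in ACSS2i libraries and 49.5% and 57.6% in DMSO libraries, so the member promoters carried a peak less often in every library.

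Fewer collagen, laminin and integrin genes had a gene-end peak under ACSS2i than under DMSO. The number was 13 and 17 in ACSS2i libraries, a mean of 15 ± 2.83 (SD, n = 2), against 33 and 40 in DMSO libraries, a mean of 36.5 ± 4.95 (SD, n = 2). The groups did not overlap, but the two-sided exact permutation p was 0.333, the smallest that 2 against 2 libraries allow. The ratio of ACSS2i to DMSO means was 0.411 for the members and 0.651 for all protein-coding genes. As a share of the 82 members this is 15.9% and 20.7% in ACSS2i libraries and 40.2% and 48.8% in DMSO libraries, against 32.5% and 40.7% of all genes in ACSS2i libraries and 52.6% and 60% in DMSO libraries. With each list reduced to its 16400 strongest peaks the groups overlapped, with 13 and 15 members in ACSS2i libraries and 15 and 12 in DMSO libraries (ratio 1.04).

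**Figure D1:**
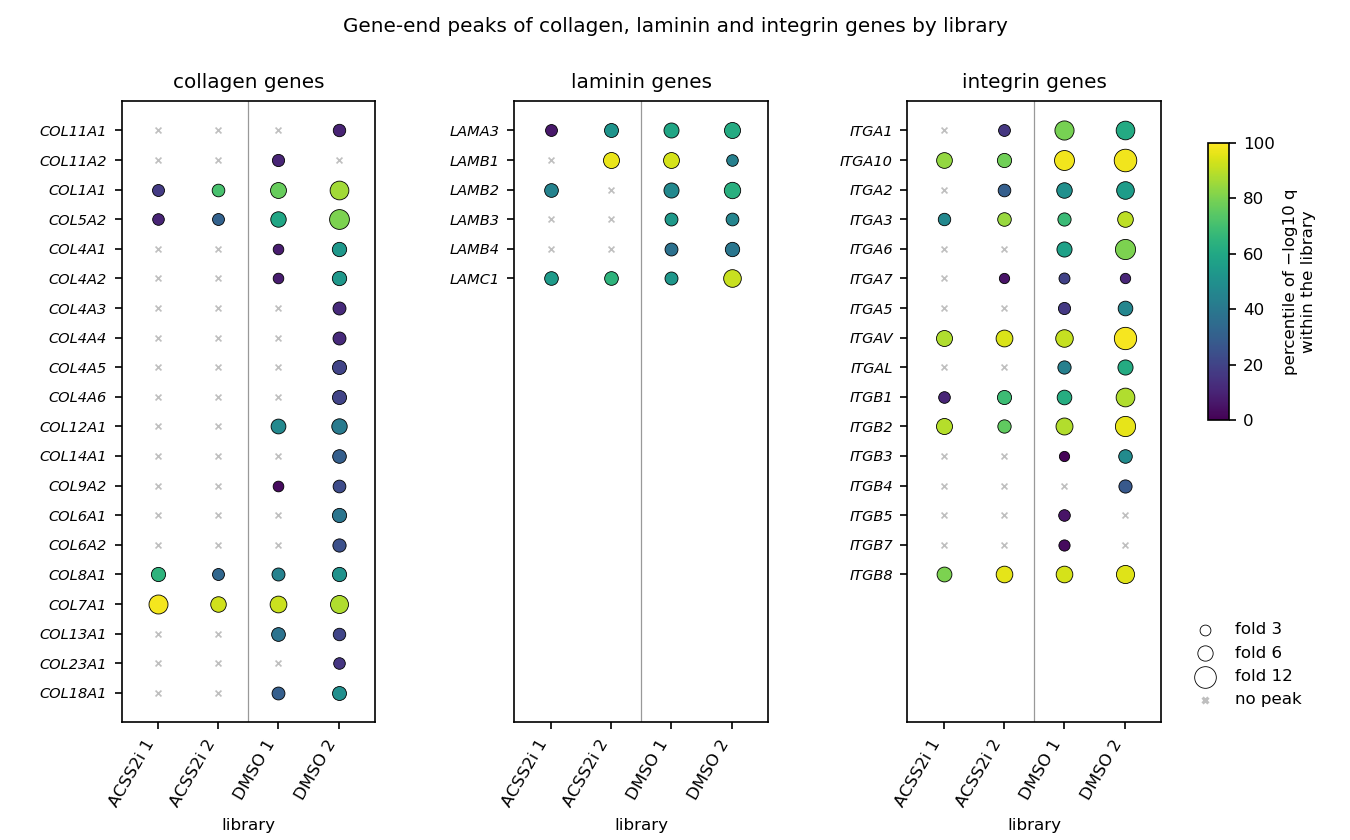
Gene-end peaks of the collagen, laminin and integrin genes named here that had one in any library. Each row is a gene and each column a library, ACSS2i left of DMSO. Circle area follows the fold of the peak over its local background, colour the percentile of its −log10 q within the library, and a cross marks no peak. No gene has a circle under ACSS2i without circles under both DMSO libraries.

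Gene by gene, 30 members had their end called in both DMSO libraries. Of these, 12 had none in either ACSS2i library, which is 40% of them and is called lost here, against 18.9% of all protein-coding genes with such a peak. A further 12 were kept, with a peak in all 4 libraries, against 58% of all genes, and the other 6, among them LAMB1, LAMB2, ITGA1, ITGA2 and ITGA7, had a peak in 1 ACSS2i library. Another 13 had a peak in 1 DMSO library alone, and 39 had none in any library, which is 47.6% of members, against 39.6% of all genes. No member had an ACSS2i gene-end peak without one in both DMSO libraries. None of the 39 members without a DMSO peak at an end was called in both ACSS2i libraries. A count of 0 among 39 would allow up to 7.69% (3 counts) if the genes were independent, which was not tested. The share among all 7950 such genes was 0%. COL4A1 and COL4A2 share the same peak but count as separate lost genes. Lost and kept describe calls, and no gene was tested alone. Leaving out DMSO replicate 1 gave 22 lost of 40, against 28.5% of all genes, a 500 bp window 7 of 23, against 19.7%, and lists of equal length 1 of 11, against 5.29%.

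By family, the 12 lost genes were 6 of 10 collagen genes, 2 of 7 laminin genes and 4 of 13 integrin genes called in both DMSO libraries. The lost collagen genes include COL4A1 and COL4A2, which share the same peak, so these counts of genes are not counts of separate peaks. The difference between families was not tested. In these bulk libraries fewer cells with an open site and less open chromatin per cell cannot be told apart.

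**Figure D2:**
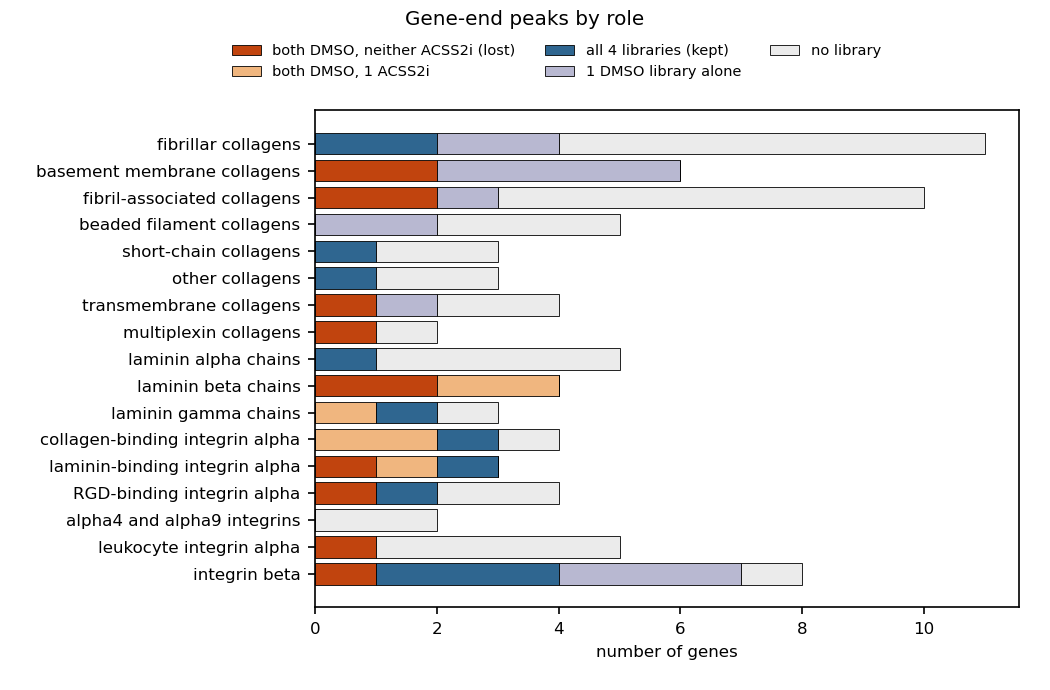
Number of member genes by role and by pattern of gene-end peaks. Each bar runs to the number of genes in the role, and colours give the libraries in which an end peak was called. The role of basement membrane collagens holds the 6 type IV genes. All 6 had a DMSO peak, 4 of them in DMSO replicate 2 alone, and none had an ACSS2i peak, while 3 of 8 integrin beta genes had a peak in all 4 libraries.

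The fibrillar collagens, which form the banded fibres of connective tissue, had an end peak in all 4 libraries at 2 of 11 genes. COL1A1, a chain of type I collagen, had folds over local background of 3.68 and 4.08 in ACSS2i libraries, against 6.48 and 9.0 in DMSO libraries. COL5A2, a chain of the type V collagen that starts type I fibrils, had folds of 3.47 and 3.64 in ACSS2i libraries, against 6.11 and 10.0 in DMSO libraries. At both genes each ACSS2i fold lay below both DMSO folds. These folds are the authors' values of each peak against its own library, and a difference in fold between libraries is only described here. The COL5A2 peak also touched an end of WDR75. COL11A1 had an end peak in DMSO replicate 2 alone (fold 3.96) and COL11A2 in DMSO replicate 1 alone (3.82, at its 3′ end), where a DMSO replicate 2 peak (3.62) lay outside the window. COL1A2, the partner chain of COL1A1, had no peak within 25 kb in any library, and COL3A1, COL2A1, COL5A1, COL5A3, COL24A1 and COL27A1 had no end peak in any.

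All 6 type IV collagen genes lie in head-to-head pairs, whose starts were 127 bp apart for COL4A1 and COL4A2, 419 bp for COL4A4 and COL4A3 and 380 bp for COL4A6 and COL4A5. No ACSS2i library had a peak at the ends shared by any of the 3 pairs. At COL4A1 and COL4A2, the chains of nearly every basement membrane, the shared peak (region chr13:110306664-110307926) had folds of 2.88 and 5.26 in DMSO libraries. That DMSO peak was weak in replicate 1, at the 8.03 percentile of −log10 q, and near the middle of the list in replicate 2, at the 53.2 percentile. COL4A3 and COL4A4, chains of the glomerular basement membrane, shared a peak in DMSO replicate 2 alone (fold 4.32), and so did COL4A5 and COL4A6 (fold 5.09). Each pair shares 1 peak, so the 6 genes are 3 observations.

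**Figure D3:**
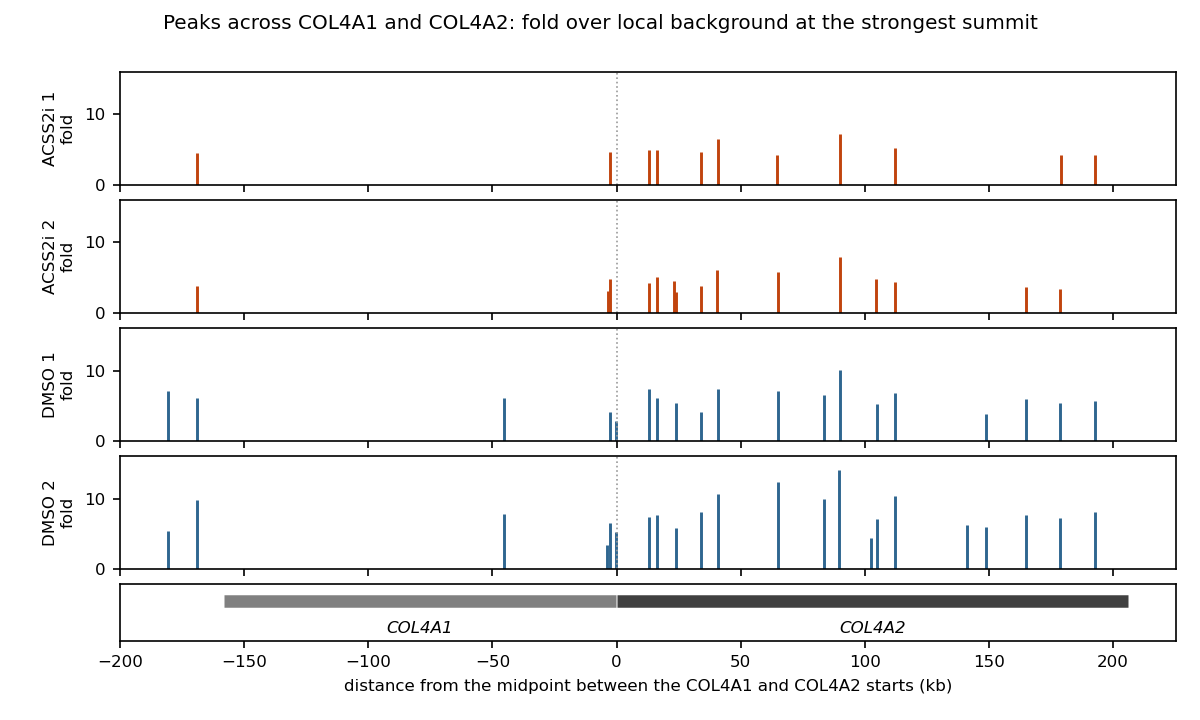
Peaks along COL4A1 and COL4A2 in each library. The horizontal axis is the distance in kb from the midpoint between the 2 starts, and the height of each line is the fold over local background of the strongest summit. The 11 and 15 peaks of the ACSS2i libraries and the 19 and 22 of the DMSO libraries lie mostly within COL4A2, and the peak at the shared start is present in the DMSO panels alone.

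Most peaks of this locus lay within COL4A2 rather than at its start. COL4A2 had 19 distal regions, the most of any member, and 9 of them were called in all 4 libraries. The strongest of these, 89.8 kb into the gene (chr13:110396559-110397639), had folds of 7.20 and 7.93 in ACSS2i libraries, against 10.0 and 14.1 in DMSO libraries. The nearest kept region to the shared start (chr13:110304099-110305196), 2.51 kb away inside COL4A1, had folds of 4.72 and 4.88 in ACSS2i libraries, against 4.14 and 6.51 in DMSO libraries, so there the groups overlapped. The region chr13:110390428-110391270, 83.6 kb from the nearest end, had folds of 6.57 and 9.87 in DMSO libraries and no peak in either ACSS2i library.

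Fibril-associated collagens sit on the surface of fibrils. COL12A1 had an end peak with folds of 5.6 and 6.09 in DMSO libraries and none in ACSS2i libraries. COL9A2, a cartilage collagen, had weak peaks at its 3′ end in both DMSO libraries (2.93 and 4.17) and none in ACSS2i libraries. COL14A1 had one in DMSO replicate 2 alone (4.78). The other 7 genes of this group had none in any library.

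Among the remaining collagens, COL13A1, a transmembrane collagen of cell contacts, had folds of 4.85 and 4.0 in DMSO libraries, and COL18A1, a basement membrane collagen, 4.26 and 5.00. Neither had an end peak in an ACSS2i library. COL6A1 (5.19) and COL6A2 (4.49), chains of the beaded filaments of type VI collagen, and COL23A1 (3.45, at its 3′ end) had an end peak in DMSO replicate 2 alone. COL7A1 and COL8A1 stood apart from these, with end peaks in all 4 libraries. COL7A1 had folds of 9.23 and 6.17 in ACSS2i libraries, against 7.19 and 8.28 in DMSO libraries, and COL8A1, a short-chain collagen, 5.18 and 3.66, against 4.33 and 5.21. At both genes the groups overlapped, and the highest value of COL7A1 came from an ACSS2i library.

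Of the laminin alpha chains, which carry the cell-binding domains, LAMA3 alone had an end peak, with folds of 3.62 and 4.99 in ACSS2i libraries, against 5.78 and 6.60 in DMSO libraries. Each ACSS2i fold lay below both DMSO folds. LAMB3, a beta chain of the laminin that anchors epithelia, had no end peak in ACSS2i libraries and folds of 4.27 and 4.17 in DMSO libraries.

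LAMC1, the gamma chain of most laminins, was kept, with folds of 4.78 and 4.82 in ACSS2i libraries, against 4.31 and 7.97 in DMSO libraries, which overlap. LAMB1, the usual beta chain beside it, had an end peak in ACSS2i replicate 2 and in both DMSO libraries. In ACSS2i replicate 1 the peak lay just outside the 1000 bp window, and the merged region (chr7:108002549-108004975) was called in all 4 libraries, with folds of 5.98 and 6.56 in ACSS2i libraries, against 6.47 and 8.43 in DMSO libraries, which overlap. LAMB2, the beta chain of the glomerular basement membrane, had an end peak in ACSS2i replicate 1 and in both DMSO libraries. Its 5′ region (chr3:49132463-49133840) had folds of 4.82 in ACSS2i replicate 1, against 5.11 and 6.87 in DMSO libraries. Its 3′ region beside USP19 (chr3:49120389-49121045) had folds of 5.82 and 7.90 in DMSO libraries and no peak in either ACSS2i library. LAMB4 had no end peak in ACSS2i libraries and peaks at its 3′ end in both DMSO libraries (4.27 and 5.27), and the merged region there also held an ACSS2i replicate 2 peak outside the window. LAMA1, LAMA2, LAMA4, LAMA5 and LAMC3 had no end peak in any library.

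The collagen receptor chains ITGA1, ITGA2 and ITGA10 were called at an end in both DMSO libraries, and ITGA11 in none. ITGA10 had the strongest kept peak of all members by the lower of its DMSO percentiles (97.8), with folds of 6.34 and 5.19 in ACSS2i libraries, against 10.2 and 13 in DMSO libraries, and lay at the 3′ end. ITGA1 had a peak in ACSS2i replicate 2 (3.6) and in both DMSO libraries (9.39 and 8.92), at an end shared with PELO. ITGA2 likewise had one in ACSS2i replicate 2 (4.08) and in both DMSO libraries (6.16 and 7.96).

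The laminin receptor chains ITGA3, ITGA6 and ITGA7 showed all 3 patterns. ITGA6 had folds of 5.86 and 10.4 in DMSO libraries and no end peak in ACSS2i libraries. Its lower DMSO percentile of 57.0 was the highest of the 12 lost members, and it was the only one still lost with lists of equal length. ITGA3 was kept, with folds of 3.97 and 4.73 in ACSS2i libraries, against 4.48 and 6.25 in DMSO libraries, which overlap. ITGA7 had weak peaks in ACSS2i replicate 2 (2.72) and in both DMSO libraries (3.11 and 2.75), at an end shared with BLOC1S1.

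Among the receptors for RGD-containing matrix proteins, ITGAV was kept, with folds of 6.56 and 7.24 in ACSS2i libraries, against 7.86 and 12.8 in DMSO libraries. ITGA5, the fibronectin receptor chain, had folds of 3.8 and 5.5 in DMSO libraries and no end peak in ACSS2i libraries. ITGA8 and ITGA2B had none in any library. The leukocyte alpha chain ITGAL had folds of 4.49 and 5.85 in DMSO libraries and none in ACSS2i libraries, at the upper end of its span, for which no strand was used. The other 4 leukocyte alpha chains (ITGAD, ITGAE, ITGAM and ITGAX), and ITGA4 and ITGA9, had no end peak in any library.

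Of the 8 beta chains, 3 were kept. ITGB1, the partner of most alpha chains, had folds of 3.48 and 5.15 in ACSS2i libraries, against 5.48 and 8.97 in DMSO libraries. ITGB8 had 5.64 and 7.10 in ACSS2i libraries, against 7.11 and 8.42 in DMSO libraries. ITGB2, the beta chain of leukocyte integrins, had 6.59 and 4.55 in ACSS2i libraries, against 7.38 and 10.4 in DMSO libraries. The immune markers stood at 0 of 8 in each ACSS2i library and at 0 and 2 of 8 in DMSO libraries, and their part in the ITGB2 values was not tested. At these 3 genes, and at ITGAV, ITGA10, COL1A1, COL5A2 and LAMA3, each ACSS2i fold lay below both DMSO folds, so at 8 of the 12 kept members, against 84.4% of all kept protein-coding genes.

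ITGB3, a partner of ITGAV, was lost, with folds of 2.69 and 4.72 in DMSO libraries, and its DMSO replicate 1 peak stood at the 0.917 percentile of the list. ITGB4, the partner of ITGA6 in hemidesmosomes, had an end peak in DMSO replicate 2 alone (4.46). ITGB5 (3.46, at its 3′ end) and ITGB7 (3.23) had one in DMSO replicate 1 alone, and ITGB6 had none in any library. The merged region of ITGB7 (chr12:53205820-53206257) also held peaks outside the window in ACSS2i replicate 1 (5.13) and DMSO replicate 2 (8.54). In all, 13 members had an end peak in 1 DMSO library alone, 10 of them in replicate 2, which has the longest list.

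The strength of the DMSO peak went with the pattern. Strength was taken as the lower of a gene's DMSO percentiles of −log10 q, each within its own list. The median was 47.5 over these 30 members and 65.4 over all 10471 such genes, so the members' DMSO peaks were the weaker ones. It was 25.2 over the 12 lost members, against 30.1 over all lost genes, and 72.1 over the 12 kept members, against 79.0 over all kept genes. Lost members ranged over 0.917 to 57.0, and kept members over 44.1 to 97.8, with COL8A1 the weakest of the kept.

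Set against genes of like strength, the members' counts lay closer to the background. In the class with a lower DMSO percentile up to 25, 6 of 7 members were lost, against 68.1% of all genes. COL4A1 and COL4A2, which share the same peak, both count in this class. Between 25 and 50 it was 5 of 10 members, against 37.8%. Between 50 and 75 it was 1 of 7, which is ITGA6, against 9.86%. Above 75 it was 0 of 6 (COL7A1, COL1A1, ITGA10, ITGAV, ITGB2 and ITGB8), against 0.908%. These classes were chosen with the data in view.

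**Figure D4:**
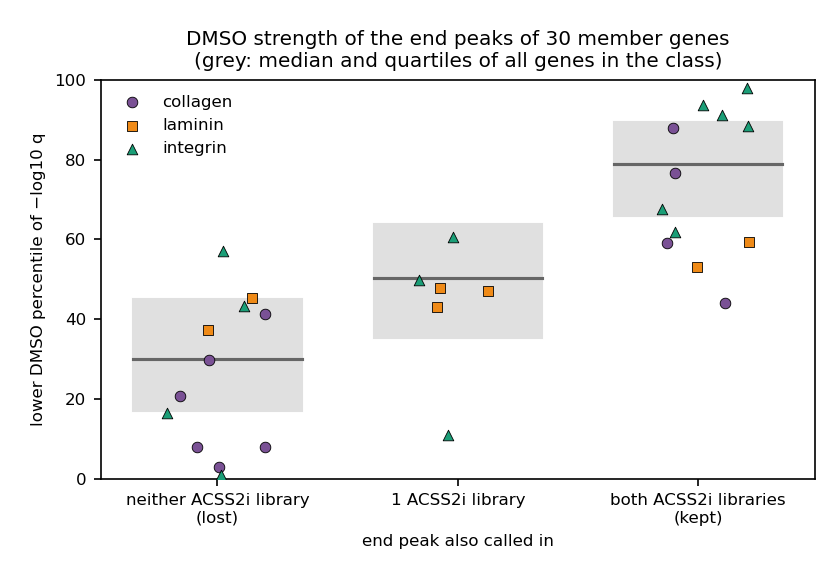
DMSO strength of the end peaks of the 30 members called in both DMSO libraries, by the number of ACSS2i libraries that also had one. Each point is a gene, the vertical axis is the lower of its DMSO percentiles of −log10 q, and the grey line and box are the median and quartiles of all protein-coding genes in the class. Lost members lie between 0.917 and 57.0 and kept members between 44.1 and 97.8, so the 2 classes overlap narrowly.

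Regions called in all 4 libraries allow ranks over the same 13306 regions in each library. Of 13 member end regions of this kind, 3 had both ACSS2i ranks above both DMSO ranks (COL7A1, COL8A1 and LAMB1), against 14.9% of all gene-end regions, and 2 had both below (ITGA10 and COL5A2), against 20.7%. COL7A1 stood at the 97.9 and 88.4 percentile in ACSS2i libraries, against the 79.0 and 57.6 percentile in DMSO libraries. COL5A2 stood at 5.91 and 13 in ACSS2i libraries, against 19.0 and 36.7 in DMSO libraries. The 5 of 13 with no overlap compare with 35.5% of all gene-end regions. With a −log10 q of at least 5 it was 3 of 8, and with peaks placed by their summit 3 of 10. Without 1 library it was 9 of 13, 9 of 14, 11 of 18 or 11 of 15, against 64.4% to 71.9% of all. There 2 libraries face 1, so ranks overlap less often by design, and these counts cannot be set beside 5 of 13.

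**Figure D5:**
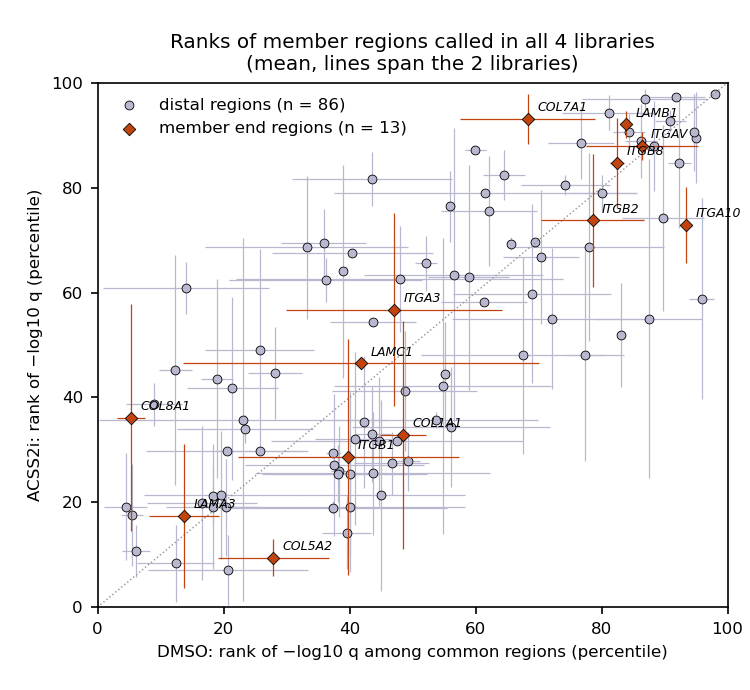
Ranks of member regions called in all 4 libraries. Each point is a region, with its mean percentile of −log10 q among the 13306 common regions in ACSS2i libraries (vertical) and in DMSO libraries (horizontal), and lines span the 2 libraries of each group. The 13 end regions are named, and 86 distal regions are unnamed. COL7A1, COL8A1 and LAMB1 lie above the dotted line of equal rank and ITGA10 and COL5A2 below it with no overlap.

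The mean fold of these 13 end regions was lower in ACSS2i than in DMSO libraries in 13 of 13 cases, as in 98.6% of all gene-end regions called in all 4 libraries. The median ratio of ACSS2i to DMSO mean fold was 0.696 for the members, lowest at COL5A2 (0.441) and highest at COL7A1 (0.995), against 0.603 for all gene-end regions. The lower folds were thus shared by nearly all such regions.

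Away from gene ends, the share of lost member regions lay near that of all distal regions. A distal region touches no gene end and lies within a member's span or 25 kb around it, and 340 such regions were found, 241 of them inside the spans. They numbered 101 and 120 in ACSS2i libraries, against 201 and 318 in DMSO libraries (ratio of means 0.426, two-sided exact permutation p = 0.333, the smallest possible). As a share of all regions called in the library they made up 0.647% and 0.565% in ACSS2i libraries. In DMSO libraries the share was 0.592% and 0.639% (ratio of means 0.984), so the groups overlapped. Of 186 called in both DMSO libraries, 65 or 34.9% were lost, against 38.1% of all distal regions near genes, and 86 or 46.2% were kept, against 37.5%. None of the 7 absent from both DMSO libraries was called in both ACSS2i libraries, against 0.487% of all such regions. Without DMSO replicate 1 it was 192 lost of 322, against 61.6% of all, and with lists of equal length 3 of 81, against 7.03%.

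By family, 37 of 94 collagen, 11 of 33 laminin and 17 of 59 integrin distal regions were lost. Of the 86 kept, 22 had both ACSS2i ranks above both DMSO ranks and 10 had both below, against 20.8% and 13.6% of all kept distal regions. Their mean fold was lower in ACSS2i than in DMSO libraries in 84 of 86 cases, as in 97.6% of all kept distal regions, and the median ratio was 0.636, against 0.623.

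The strongest kept distal region lay in COL15A1, a basement membrane collagen (chr9:98989139-98989998). It had folds of 7.37 and 6.40 in ACSS2i libraries, against 8.11 and 11.0 in DMSO libraries, and stood at or above the 98.5 percentile of every list. COL8A1 had one 20.7 kb inside its span (chr3:99658354-99660154) with folds of 6.46 and 9.70 in ACSS2i libraries, against 9.69 and 14.5 in DMSO libraries. COL5A1 had one 4.06 kb outside its span (chr9:134637294-134638186) with 7.87 and 4.87 in ACSS2i libraries, against 8.82 and 11.0 in DMSO libraries.

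COL17A1, a transmembrane collagen of hemidesmosomes, had one 24.3 kb away (chr10:104109834-104110557) with folds of 9.41 and 6.77 in ACSS2i libraries, against 10.7 and 14.7 in DMSO libraries. COL1A1 had one 5.75 kb away (chr17:50178015-50178697) with 4.41 and 5.13 in ACSS2i libraries, against 9.88 and 13.8 in DMSO libraries. Of these 5, COL1A1 alone had no overlap in its ranks: it stood at the 39.7 and 78.0 percentile of the common regions in ACSS2i libraries, against 93.9 and 97.9 in DMSO libraries.

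The 5 strongest lost distal regions, of which that of COL4A2 is given above, stood between the 56.0 and 70.3 percentile by the lower of their DMSO values. COL14A1 had one 74.6 kb from its ends (chr8:120298749-120299214) with folds of 6.60 and 10.5 in DMSO libraries and no ACSS2i peak. ITGAV had one 14.3 kb outside its span (chr2:186575362-186576098) with 5.78 and 8.07, although its own end was kept. ITGA11, a collagen receptor chain with no end peak, had one 56.1 kb inside (chr15:68352475-68352850) with 5.47 and 7.04. COL28A1 had one about 101 kb inside (chr7:7438920-7439261) with 5.75 and 9.08.

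Of the 12 members with a lost end 9 had a distal region in all 4 libraries, and of the 12 with a kept end 8, against 31.2% of all lost and 32% of all kept protein-coding genes, with no matching for the length of the gene. COL4A1 and COL4A2 share some of these regions. ITGB3 had 11 distal regions, of which 6 were kept, and one 4.05 kb inside it (chr17:47257514-47258244) had folds of 6.17 and 6.95 in ACSS2i libraries, against 7.61 and 9.84 in DMSO libraries. ITGA6 had a single distal region, 14.4 kb inside (chr2:172440980-172442574), called in all 4 libraries with folds of 4.02 and 4.90 in ACSS2i libraries, against 6.37 and 11.5 in DMSO libraries. COL18A1 had 3 kept regions within its span, of which chr21:45427269-45428050 had folds of 7.09 and 4.12 in ACSS2i libraries, against 8.21 and 11.3 in DMSO libraries. COL12A1, COL13A1 and COL9A2 were the 3 lost members with no distal region in all 4 libraries.

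Members also had 45 regions within reach at the end of another gene. Of 39 called in both DMSO libraries, 6 were lost, against 21.5% of all such regions, and 25 or 64.1% were kept, against 55.5%. The lost ones lay near COL8A2, COL2A1, ITGAL, ITGA2B, ITGB2 and LAMB2. The one near LAMB2 touched an end of QARS1 (chr3:49104333-49105136) and had folds of 6.43 and 11.4 in DMSO libraries and no peak in either ACSS2i library.

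The genes that act with the members were taken from 4 lists. Of 27 genes of collagen processing, 21 were called at an end in both DMSO libraries, and 7 of these were lost, 10 kept and 0 gained. The lost ones were LOX, LOXL1 and LOXL4, which crosslink collagen, BMP1, which cleaves procollagen, its enhancers PCOLCE and PCOLCE2, and COLGALT1, which adds galactose to collagen. LOXL1 had folds of 8.07 and 8.35 and LOXL4 5.99 and 10.4 in DMSO libraries. P4HA1 and PLOD2, hydroxylases of collagen, were among the 10 kept. P4HA1 had folds of 7.37 and 7.66 in ACSS2i libraries, against 9.40 and 12.1 in DMSO libraries. PLOD2 had 5.41 and 6.67, against 5.52 and 9.13. P4HA2, another such hydroxylase, had an end peak in ACSS2i replicate 2 (3.93) and in both DMSO libraries (6.57 and 9.58).

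Of 24 integrin adaptors and focal adhesion genes, 14 were called at an end in both DMSO libraries, and 2 of these were lost (SRC and ACTN4) and 11 kept, among them TLN1, PTK2, VCL and ILK. TLN1, which activates integrins, had folds of 6.82 and 6.60 in ACSS2i libraries, against 6.76 and 7.07 in DMSO libraries, which overlap. Of 26 other matrix proteins and receptors 14 had such a peak, and 2 were lost, HSPG2 (2.82 and 3.01 in DMSO libraries) and AGRN (6.0 and 5.07), both heparan sulfate proteoglycans of basement membranes. FN1, SPARC and THBS1 were among the 8 kept. Of 18 matrix proteases and inhibitors 8 had such a peak, and 0 were lost. In none of the 4 lists was a gene gained, and the lost share of all protein-coding genes, 18.9%, applies to each.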

How the data were processed

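ATAC-seq peak lists of 2 ACSS2i and 2 DMSO libraries of 786-O cells were used, grouped by the treatment in the labels. Per the submitters' processing notes, the build was hg38 and the tools were MACS2 2.1.2, Bowtie2, Picard 2.18.26, SAMtools 1.9, bedtools, Trimmomatic 0.38, bcl2fastq 2.17, deepTools 3.5.0 and DiffBind, listed with no role or order. Not given in the sources used here were the caller's options, the filter on peaks, any Tn5 shift, duplicate handling and read totals, so depth per library is unknown. The deposited fold column is the authors' enrichment ratio of a summit over the local background of its own library. The deposited −log10 q column is the caller's q-value, and every value was at least 2. The authors' summit offset, a deposited position in bp, placed summits. The deposited score and −log10 p columns were not used.

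Summits of 1 interval were counted as 1 peak with the values of the strongest. Peaks of the 4 libraries that overlapped by at least 1 bp were merged into regions. Gene spans, strand and promoters were read from RefSeq tables (GRCh38.p14); exons, introns and UTRs were not used. The promoters of 24 members were not used here, among them COL1A1, COL1A2, COL2A1, COL3A1, COL5A2, COL6A1, COL6A5, COL8A1, COL9A3, COL14A1, COL20A1, COL22A1, ITGA3, ITGA7, ITGA9, ITGAD, ITGAL, ITGAX, ITGB2, ITGB3, ITGB4, LAMA1 and LAMC3. Counts were described beside the same count over all protein-coding genes or all like regions, and counts per library were tested by exact two-sided permutation. Python 3.11.15, numpy 2.4.6, pandas 2.3.3, scipy 1.17.1 and matplotlib 3.10.9 were used, and the counting was tested on simulated lists.

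Genes were named by a rule: all lost or gained members, kept members by DMSO strength, other patterns by role, the 5 strongest lost and kept distal regions, and the lost genes of each related list. Members, lists and rules were chosen with earlier results of these data known. Other genes and regions, such as the kept related genes and the kept distal regions of lost members, were named after their values were seen. Some genes counted among the members and markers are not reported here by name. Alternatives were a −log10 q of at least 5, lists of equal length, a 500 bp window, a reach of 10 kb, placement by summit, the 5′ end alone and leaving out each library.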

Additional observations from a re-analysis of the deposited data

How the results depend on the processing

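Of 63 recomputed values, 46 kept their direction and stayed within 1.5 times a count or 1 SD of a ratio. With lists of equal length (16400 peaks) the ratio of member genes with an end peak came to 1.04, and the groups overlapped. Lost ends then came to 1 of 11 and gained ends to 1 of 66 (COL8A1, against 0.851% of all genes). Lost distal regions came to 3 of 81 and gained distal regions to 2 of 20 (14% of all). A 500 bp window gave 7 lost ends, without COL9A2, COL18A1, ITGAL, LAMB3 and LAMB4. The kept members changed as well: the 500 bp window left out COL1A1 and ITGA10. Placement by summit left out COL1A1, COL8A1, ITGA10 and ITGB8 and put LAMB1 among the lost. A −log10 q of at least 5 left out COL1A1, COL5A2, COL8A1, ITGB1 and LAMA3. End regions with ranks that did not overlap came to 3 at a −log10 q of at least 5 and to 3 by summit. The 5′ end alone gave 9 lost of 18 (18.2% of all genes), COL27A1 among them, and merged regions, chosen after seeing the data, 12 of 32 (17.9% of all genes), with COL11A2 in and LAMB4 out. Leaving out each library in turn gave ratios of 0.356 to 0.466, lost ends of 13 to 22 and no gained end. Lost distal regions then came to 79 to 192, gained distal regions to 0 to 6 and median fold ratios to 0.603 to 0.887. End regions with ranks that did not overlap came to 9 to 11, out of 13 to 18 regions. Without an ACSS2i library every distal region absent from DMSO libraries is gained by construction. The cause of the other differences was not tested. Depth is unknown and the lists ran from 16400 to 50294 peaks, so a region without a call may lie below the caller's threshold. Swapping the groups within each replicate number (replicate block, added after seeing the data) left the ratio at 0.411 with an exact permutation p of 0.5, the smallest possible for 2 pairs, and nothing in the labels ties libraries of the same number to each other. The counts of lost and gained features come from no test.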

Other observations

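Of the 39 members with no gene-end peak in any library, 33 had a distal region in at least 1 library and 13 had one in all 4: COL5A1, COL6A3, COL8A2, COL15A1, COL17A1, COL21A1, COL26A1, COL27A1, COL28A1, LAMA5, ITGAE, ITGAM and ITGB6. ITGB6, an epithelial partner of ITGAV, had 4 such regions outside its span, and the nearest, 5.42 kb away (chr2:160205344-160206047), had folds of 6.30 and 7.40 in ACSS2i libraries, against 6.12 and 8.81 in DMSO libraries, which overlap. COL27A1 had one inside its span (chr9:114278766-114279426) with folds of 5.87 and 5.34 in ACSS2i libraries, against 5.55 and 7.09 in DMSO libraries. LAMA5, an alpha chain of many adult basement membranes, had one 2.61 kb outside its span (chr20:62369059-62370786) with 4.85 and 3.78 in ACSS2i libraries, against 6.22 and 6.41 in DMSO libraries. A region outside a span may belong to another gene. For the counts of 33 and 13 no share over all protein-coding genes without an end peak is given here. Gene length was not matched either. ITGA4, ITGA8, ITGA9, COL1A2 and COL22A1 had no region within 25 kb in any library.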
